A study of Mus musculus with 4 samples.

Results

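The cells described here are the macrophages that the authors' annotation names Ifit1bl1+ Cmpk2+, after a pair of interferon-stimulated genes. All cells with that name in the deposited cell table were taken, 1941 of 27366 cells, and the annotation splits the cells into 9 clusters. They are bone marrow-derived macrophages (BMDMs), primary cells grown out of mouse marrow in the growth factor M-CSF (50 ng/ml), from mice 8 to 12 weeks old. The study's title concerns the calcium channel TRPV4 and NF-kB in lung inflammation. The 4 libraries come from WT BMDMs left untreated (C57BL/6J per the titles, while the growth text has C57BL/6), the same with LPS (bacterial lipopolysaccharide, 100 ng/mL for 24 h), Trpv4-null BMDMs left untreated, and Trpv4-null BMDMs with LPS. No other allele or agent is given, the cells all shared the M-CSF culture, and the deleted part of Trpv4 is not given in the sources used here.

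Type I interferons, above all interferon beta and the interferon alphas, are secreted when a cell senses viral nucleic acid or, through Toll-like receptor signalling, bacterial LPS. They bind the receptor pair Ifnar1 and Ifnar2, whose kinases Jak1 and Tyk2 activate a transcription factor complex containing Irf9. It binds the interferon-stimulated response element in promoters of interferon-stimulated genes (ISGs). The products block viral replication, present antigen and recruit leukocytes, and macrophages are among the cells that both make and answer interferon. NF-kB is a separate transcription factor pathway that LPS also engages and that drives cytokines such as Il1b and Tnf.

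Each group is 1 library. The design text speaks of 3 mice per genotype and 12 samples, but the cell table names only the library of a cell, so no difference between libraries has a replicate check and none was tested. Within a library the cluster had been defined from the same counts, so its comparison with other cells is a description. Values are UMIs (unique molecular identifiers, 1 per captured mRNA molecule) summed over cells and given as CPM, that sum being scaled to 1000000 UMIs. Ratios are log2 of CPM + 1. A gene was compared if it reached 20 CPM and 30 UMIs on the higher side, which lets in genes through the side where they are high, and 2-fold or more is a size, not a test. Intervals are 95% and cover counting error only. In pairs of values the WT library comes first and the library labelled Trpv4-null, called null-labelled below, second.

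Trpv4 itself did not follow the label. In the cluster it was at 6.44 and 9.99 CPM untreated and 2.19 and 8.25 CPM with LPS, and in the other cells at 5.81 and 8.54 CPM and 2.05 and 9.79 CPM. It was therefore as high or higher in the null-labelled libraries, from 8 and 17 UMIs untreated and 33 and 100 after LPS in the cluster. UMIs are read near the 3' end of a transcript, and where they lie outside the deleted part they say nothing of the deletion. The cluster's sums held 1242191 and 1701457 UMIs untreated and 15047090 and 12121138 after LPS. Its median cell had 6368 and 8663 UMIs untreated and 16398 and 16375.5 after LPS, against 5646, 7863, 16707 and 15995 in the other cells. Of all barcodes, 74 occurred in 2 libraries, and 17 cluster cells carried one of them.

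The cluster made up 2.52% (exact interval 2.16 to 2.91%) of untreated WT cells, 177 of 7028, and 3.26% (2.81 to 3.77%) of untreated null-labelled cells, 179 of 5485. After LPS it held 10.4% (9.79 to 11.1%) of WT cells, 865 of 8288, and 11% (10.2 to 11.7%) of null-labelled cells, 720 of 6565. The share was thus higher in each LPS library than in its untreated partner. The cluster boundary was drawn on genes that LPS also moves, so sizes before and after LPS need not count the same cell state. A small interferon-high fraction was present without any added stimulus in both untreated libraries.

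**Figure D1:**
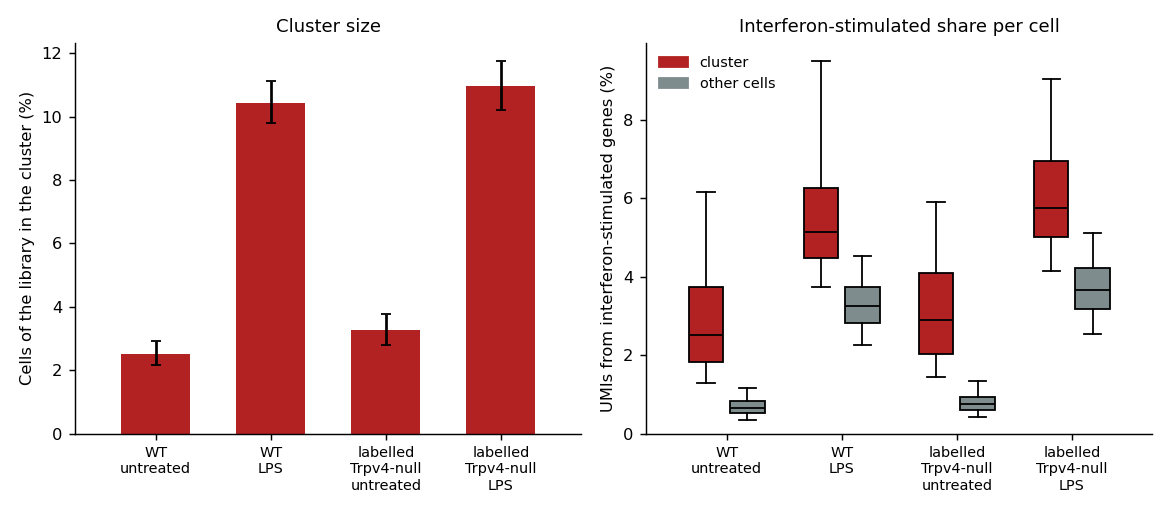
Left, share of each library's cells that are in the cluster (%), with exact 95% binomial intervals as error bars; right, share of a cell's UMIs from 107 interferon-stimulated genes (%), with boxes at the quartiles, a line at the median and whiskers from the 5th to the 95th percentile of cells. The cluster holds 2.52% and 3.26% of untreated cells and 10.4% and 11% after LPS, and its median share lies above that of the other cells in all 4 libraries.

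The cluster was defined from these same counts, so the levels of its name genes are a description, not a check of the name. Ifit1bl1, a member of the Ifit family of antiviral RNA-binding proteins, was at 266 and 262 CPM in the untreated cluster and 569.5 and 747 CPM after LPS, against 0.471 and 0.751 CPM and 61.4 and 105 CPM in the other cells. Cmpk2, a mitochondrial nucleotide kinase, was at 465 and 508 CPM untreated and 1140.0 and 1431 CPM with LPS, against 5.46 and 6.89 CPM and 166 and 265 CPM. Both were lower in the other cells in each library, but the other untreated cells are many more, and of Cmpk2 they held 232.0 and 312.0 UMIs beside 578.0 and 864.0 in the cluster. At least 1 Ifit1bl1 UMI was found in 42.9% and 51.4% of untreated cluster cells against 0.219% and 0.377% of the others, and in 83.0% and 88.1% against 38.9% and 49.8% after LPS. With each cell thinned to 3000 UMIs these shares were 33.5% and 32.4% against 0.145% and 0.137% untreated, and 58.2% and 67.6% against 14.4% and 21.1% after LPS. Thinning left out 10, 4, 3 and 7 cluster cells (WT untreated, WT LPS, then null-labelled in the same order) and 656, 118, 206 and 86 others. No annotated cluster is a cell type that should lack these genes, so the share that free RNA gives was not measured. The lowest share with an Ifit1bl1 UMI among the other clusters, apart from High_Btg1 with 67 cells in all, was 0% and 0% untreated and 34.8% and 44.5% after LPS.

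The cells were macrophages by their markers. All 14 macrophage markers listed, among them Lyz2, Csf1r, Cd68 and C1qa, were above 20 CPM in the cluster in every library. Lyz2, lysozyme, was at 24454 and 19862 CPM in the untreated cluster and 9867 and 9017 CPM after LPS, against 22464 and 19342 CPM and 16698 and 15002 CPM. It was therefore near equal untreated and lower in the cluster after LPS. The single macrophage marker past 2-fold was Fcgr1, the high-affinity IgG receptor, itself interferon-inducible, at 436 and 466 CPM against 82.6 and 80.4 CPM untreated. Summed monocyte markers came to 267 and 277 CPM untreated and 1585 and 1666 CPM with LPS, against 108 and 109 CPM and 894 and 984 CPM. Of the 10 listed, 3 were compared untreated, all on the higher side (medians 0.97 and 0.71), and of these Ms4a4c, also on the ISG list, passed 2-fold. Ms4a4c gave 1474 and 1567 CPM of the sum after LPS. Only 2 of the 10 were compared there, with Ms4a4c on the higher side (log2 0.98 and 0.87). The other member compared was lower in the cluster (log2 -0.86 and -1.15), past 2-fold in the null-labelled library. The defining marker Ccr2 was at 66.0 and 45.3 CPM untreated against 33.2 and 27.3 CPM, and Ly6c2, also defining, was at 0 in both untreated clusters against 2.33 and 1.37 CPM. Neutrophil markers summed to 49.1 and 66.4 CPM untreated and 86.7 and 119.6 CPM with LPS, against 222, 379, 126 and 124 CPM. B, T and NK markers summed to 219 and 216 CPM untreated, nearly all Ighm, and to 3.26 and 0.660 CPM after LPS, against 139, 140, 4.02 and 3.02 CPM. So the neutrophil sum was lower in the cluster untreated, and the monocyte and lymphoid sums were higher. Dendritic cell markers summed to 1117 and 1197 CPM untreated against 579 and 603 CPM, and to 3590 and 3543 CPM against 2734 and 2849 CPM after LPS. Only Bst2 and Irf8 of that list passed 20 CPM, and both are interferon-related genes that macrophages express. The other 10 of the 12 listed were at 4.70 CPM or less in the cluster in each library, from Batf3 at up to 4.70 CPM and Fscn1, Siglech and Clec9a at up to 1.79, 1.76 and 1.61 CPM to Flt3 and Ccr7, which had no UMI there. The neutrophil granule gene Elane and the T cell gene Cd3d had none either. Stromal, endothelial, mast and red cell markers summed to 12.1 and 18.8 CPM untreated and 45.4 and 53.7 CPM with LPS, against 4.26, 5.34, 11.7 and 20.5 CPM, mostly the endothelial receptor Kdr and, after LPS, the stromal gene Dcn. These sums were small beside the macrophage markers, at 38385 and 33054 CPM untreated and 23205 and 22805 CPM in the LPS clusters. The cluster's median mitochondrial share of UMIs was 5.16% and 5.74% untreated and 2.53% and 2.66% after LPS, against 6.08%, 6.15%, 3.11% and 3.26%. The part of other cell types and of RNA quality in the results was not tested.

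Promoters of several marked genes hold the letters of the interferon element. RefSeq promoter sequence (build GRCm38.p6) was searched on both strands for GAAANNGAAA, the core of the interferon-stimulated response element, from 250 bases before to 50 after each start site. A second motif, GGGNNNTTCC, a core of NF-kB sites, was added after the promoters had been seen. The stretches below lie before the start site, capitals mark matches of either motif (on the opposite strand as the reverse complement), and they were chosen for the cluster's name genes (Ifit1bl1, Cmpk2), for strongly marked effectors (Rsad2, Isg15, Cxcl10) and for the ligand (Ifnb1). Ifit1bl1 is at chr19:34601983-34602102 (minus strand), Cmpk2 at chr12:26469095-26469214 (plus), Rsad2 at chr12:26456483-26456602 (minus), Isg15 at chr4:156200819-156200926 (minus), Cxcl10 at chr5:92349013-92349132 (minus) and Ifnb1 at chr4:88522795-88523044 (minus).
Ifit1bl1: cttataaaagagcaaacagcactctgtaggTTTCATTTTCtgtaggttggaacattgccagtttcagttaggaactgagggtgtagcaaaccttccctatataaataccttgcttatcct
Cmpk2: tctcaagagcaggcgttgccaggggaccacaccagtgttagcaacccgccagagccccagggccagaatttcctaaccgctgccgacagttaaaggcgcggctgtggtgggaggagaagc
Rsad2: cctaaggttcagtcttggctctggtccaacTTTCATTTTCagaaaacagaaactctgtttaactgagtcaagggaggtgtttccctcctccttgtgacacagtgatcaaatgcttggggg
Isg15: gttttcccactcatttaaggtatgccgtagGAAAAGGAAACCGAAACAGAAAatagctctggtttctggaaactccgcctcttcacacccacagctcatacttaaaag
Cxcl10: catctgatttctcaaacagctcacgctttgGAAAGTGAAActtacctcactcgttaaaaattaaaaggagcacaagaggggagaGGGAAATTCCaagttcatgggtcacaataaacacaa
Ifnb1: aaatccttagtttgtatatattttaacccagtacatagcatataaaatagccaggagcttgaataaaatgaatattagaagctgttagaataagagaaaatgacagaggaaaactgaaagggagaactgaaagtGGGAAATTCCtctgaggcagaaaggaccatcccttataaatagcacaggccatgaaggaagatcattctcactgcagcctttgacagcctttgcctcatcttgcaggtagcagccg
GAAANNGAAA occurred 1 time each in the Rsad2 and Cxcl10 windows and in both Ifit1bl1 windows (that of its second start site, with the match 23 bases upstream, is not printed), 3 overlapping times in Isg15, and not in Cmpk2 or Ifnb1. GGGNNNTTCC occurred 2 times in the Cxcl10 window, of which 1 is printed, and 1 time in Ifnb1, 116 bases before its start. Cmpk2 and Rsad2 are neighbours on chromosome 12, transcribed away from each other. A missing match says only that these letters are not in this window.

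Of the 16 genes among the 15 largest untreated ratios under either label, 13 had a promoter entry and 9 of these (69.2%) held GAAANNGAAA. Of the 17 after LPS, 11 had an entry and 4 (36.4%) held it. The share was 35.2% (50 of 142) for genes 2-fold or more higher in both untreated clusters and 30% (21 of 70) for those higher in both LPS clusters, against 4.06% of the 10688 matched genes of the count table and 3.99% of all 27025 genes with a promoter. GGGNNNTTCC was in 12.0% (17 of 142) and 20% (14 of 70) of these sets, against 7.45% and 6.31%. TTCNNNGAA, the gamma-activated site core, was in 17.6% and 15.7%, against 8.31% and 9.55%. A match is a description of letters, not a bound site, and the genes had been picked on their ratio.

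Across all genes, the untreated cluster had 204 of 6103 compared genes (3.34%) 2-fold or more higher than the other WT cells and 56 (0.918%) lower. In the null-labelled library these were 208 of 6239 (3.33%) and 89 (1.43%). After LPS the counts were 106 of 5332 (1.99%) higher and 18 (0.338%) lower in WT, and 101 of 5173 (1.95%) and 37 (0.715%) in the null-labelled library. Higher genes made up 78.5% and 70.0% of these calls untreated and 85.5% and 73.2% after LPS. Under TMM scaling the shares were 90.8% and 81.4% untreated and 90.5% and 85.7% after LPS (TMM sets the bulk of genes level between sums). The median over all genes was -0.11 and -0.10 log2 untreated and -0.09 and -0.12 after LPS, and with TMM 0.05, 0.05, 0.04 and 0.04. Of the higher genes, 177 were shared by both untreated clusters (86.8% of the WT set, 85.1% of the other) and 92 by both LPS clusters (86.8% and 91.1%). Between untreated and LPS, 45 were shared in WT (22.1% of the untreated set, 42.5% of the LPS set) and 38 in the null-labelled libraries (18.3% and 37.6%).

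In all 4 libraries 33 genes were 2-fold or more higher in the cluster, and 21 of them are on the ISG lists. They include Ifit1, Ifit2, Ifit3, Rsad2, Mx1, Gbp2 to Gbp5, Igtp, Iigp1, the RNA sensor Tlr3, the checkpoint ligand Cd274, the death ligand Tnfsf10, the cytokine Il15 and the chemokines Cxcl10 and Ccl4. The interferon-gamma-inducible transcript AW112010 was at 282 and 319 CPM untreated and 3119 and 4114 CPM with LPS, against 24.6 and 36.5 CPM and 1275 and 1706 CPM. Fgl2, a prothrombinase-like secreted protein, was at 65.2 and 115 CPM and 705 and 683 CPM, against 8.50 and 12.7 CPM and 214 and 235 CPM. Lower in all 4 were 4 genes of dividing cells, Birc5, Mki67, Stmn1 and Top2a. Top2a, a topoisomerase of the cell cycle, was at 1.61 and 4.70 CPM untreated and 3.99 and 3.63 CPM with LPS, against 45.9 and 96.9 CPM and 34.0 and 45.2 CPM. Of the 12 mitosis genes listed, 9 of 10 and 12 of 12 compared were 2-fold or more lower in the untreated clusters (0.918% and 1.43% of all genes), and 4 of 4 and 5 of 5 after LPS (0.338% and 0.715%). Another cluster is named Proliferating, and its cells are among the others. Against the cluster named Macrophage alone, Mki67 and Birc5 in the untreated null-labelled library (log2 0.39 and 0.33) and Stmn1 in the null-labelled LPS library (0.35) were on the higher side.

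Interferon ligands. Ifnb1, interferon beta, was the single ligand of the 8 listed with a row in the table. After LPS the cluster held 568 of the 637 Ifnb1 UMIs of the WT library (89.2%) and 623 of the 709 of the null-labelled library (87.9%), while it held 10.4% and 11.1% of all UMIs. The level was 37.8 and 51.4 CPM (intervals 34.7 to 41.0 and 47.4 to 55.6) against 0.535 and 0.887 CPM in the other cells, a ratio of 70.6-fold (interval 54.9 to 92.0) and 57.9-fold (interval 46.2 to 73.4). An Ifnb1 UMI was found in 157 of 865 cluster cells (18.2%, 15.6 to 20.9%) and 155 of 720 (21.5%, 18.6 to 24.7%), against 51 of 7423 (0.687%, 0.512 to 0.902%) and 67 of 5845 (1.15%, 0.889 to 1.45%). With cells thinned to 3000 UMIs the shares were 7.67% and 8.41% against 0.11% and 0.208%. After LPS, then, most Ifnb1 transcripts in either library lay in this cluster, and most of its cells had none.

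Untreated, the WT cluster had 1 Ifnb1 UMI in 177 cells and the null-labelled cluster had 0 in 179, which allows a share of up to 1.68% of cells with a UMI. The 6851 and 5306 other untreated cells also had 0, which allows up to 0.0438% and 0.0565%. Within the LPS clusters Ifnb1 was uneven. The 10 cells with the most held 30.5% and 32.9% of the cluster's Ifnb1 UMIs, single cells reached 40 and 26 UMIs, and 38 and 37 cells had 5 or more. Without those 10 cells the cluster still held 85.1% and 82.9% of the library's Ifnb1 UMIs, and by cells with a UMI it held 75.5% and 69.8%. The next highest clusters were Proliferating, with 2.33% and 2.17% of cells, and Cd74+, with 2.07% and 3.88%, against 0.292% and 0.514% in the cluster named Macrophage.

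**Figure D2:**
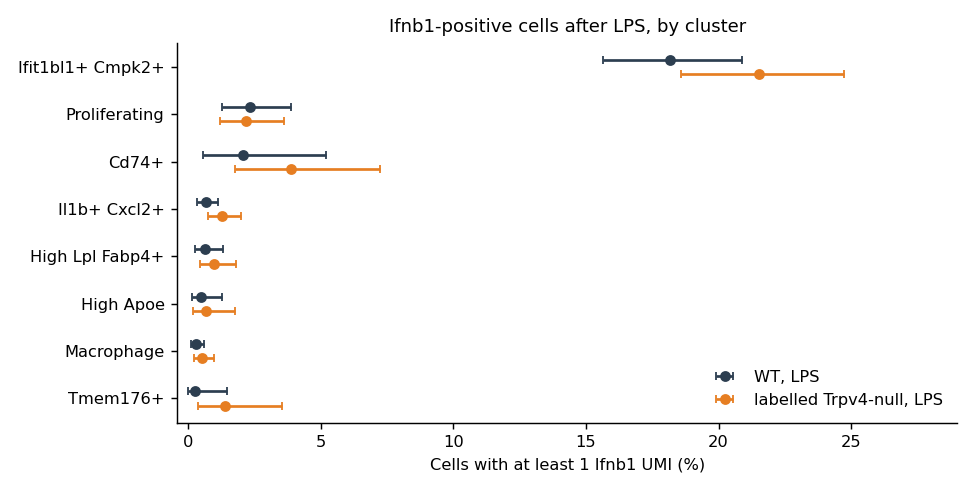
Share of cells with at least 1 Ifnb1 UMI after LPS (%), for each cluster of at least 100 cells in both LPS libraries, with exact 95% binomial intervals. The Ifit1bl1+ Cmpk2+ cluster stands at 18.2% and 21.5%, and no other cluster shown exceeds 3.88%.

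Cluster cells with an Ifnb1 UMI differed from those without beyond Ifnb1. This split was chosen after the data had been seen, and cells with a UMI were somewhat deeper, with medians of 17269 against 16254 UMIs in WT and 18667 against 15916 in the null-labelled library. In WT 74 of 5090 compared genes (1.45%) were 2-fold or more higher and 27 (0.53%) lower, and in the null-labelled library 55 of 4845 (1.14%) and 11 (0.227%). Besides Ifnb1, which defines the split, 33 genes were higher in both, and the only gene lower in both was Scd2, a fatty acid desaturase. Ifit1bl1 was at 1359 against 383 CPM in WT and 1419 against 527 CPM in the null-labelled library. Nos2, inducible nitric oxide synthase, was at 157 against 28.7 CPM in WT and 254 against 70.2 CPM in the null-labelled library. Both name gene and nitric oxide synthase were thus higher beside Ifnb1 in each library. Lipg, an endothelial-type lipase, was at 174 against 45.7 CPM in WT and 176 against 55.9 CPM in the null-labelled library. The chemokine Ccl4 was at 4488 against 1304 CPM in WT and 4916 against 2155 CPM in the null-labelled library. Il10, an anti-inflammatory cytokine, was at 22.6 against 6.08 CPM in WT and 31.8 against 9.42 CPM in the null-labelled library. The ISG list as a whole moved less, with a median log2 difference of 0.45 and 0.29 over 101 and 100 compared members, against -0.10 and -0.09 over all genes. ISGs made up 7.66% of a median cell's UMIs with an Ifnb1 UMI against 4.90% without in WT, and 7.57% against 5.49% in the null-labelled library.

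Receptors and signal transducers. None of the 5 interferon receptor genes compared was 2-fold higher or lower in the cluster in any library. Ifnar1 was at 101 and 75.2 CPM untreated and 129.9 and 125 CPM with LPS, against 95.5 and 85.5 CPM and 131 and 119.5 CPM. Jak1, a kinase of the receptor pair, was at 189 and 212 CPM untreated against 221 and 224 CPM. Ifnar1 and Jak1 were thus near equal inside and outside the cluster. Of 13 signal transducers compared, 4 were 2-fold or more higher in each untreated cluster, where 3.34% and 3.33% of all genes were, and 0 of 12 after LPS, where 1.99% and 1.95% were. Irf7, which amplifies interferon production, was at 373 and 486 CPM untreated and 1500.0 and 1734 CPM with LPS, against 18.2 and 37.6 CPM and 1088 and 1237 CPM. After LPS the other cells came close to the cluster for Irf7, at log2 ratios of 0.46 and 0.49. Irf8, a lineage factor, was at 339.7 and 393 CPM untreated against 346 and 364 CPM. Irf8 thus did not mark the cluster. Among negative regulators Usp18, which removes Isg15 and blocks the receptor, was at 155 and 159 CPM untreated against 4.28 and 6.42 CPM. Socs1, a Jak inhibitor, was at 31.4 and 18.2 CPM untreated and 107 and 102 CPM with LPS, against 1.06 and 1.10 CPM and 40.4 and 40.4 CPM, while Socs3 was at 25 and 10.6 CPM and 214 and 210.2 CPM against 21.6 and 12.7 CPM and 201 and 192 CPM. The inhibitor Socs1 therefore marked the cluster and Socs3 did not. In the untreated null-labelled library Socs1 was under the 20 CPM needed for comparison. Of the negative regulators compared, 2 of 8 and 1 of 6 were 2-fold or more higher untreated and 1 of 8 in both libraries after LPS.

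Antiviral effectors. Of the 107 genes on the joined ISG lists, 92 and 93 were compared untreated, 83 and 82 were 2-fold or more higher and 0 lower (medians 2.49 and 2.49 log2), and the other 15 and 14 were under the minimum level. After LPS 97 and 99 were compared, 30 and 25 were higher and 0 lower (medians 0.67 and 0.61). Over all genes the medians were -0.11, -0.10, -0.09 and -0.12, and 3.34%, 3.33%, 1.99% and 1.95% were 2-fold or more higher. In the other untreated cells 55 ISGs reached the minimum under either label, so many were compared through the cluster's level alone. For such genes a lower call was not possible, and the cluster is drawn on high ISG levels. The 5 Ifit genes compared were higher in all 4 libraries, and 0 Ifit genes reached the minimum in the other untreated cells. Ifit1, which binds RNA lacking host cap marks, was at 1087 and 1215 CPM untreated and 1967 and 2227 CPM with LPS, against 9.30 and 12.0 CPM and 787 and 982 CPM. Rsad2 (viperin), an enzyme that makes a chain-terminating nucleotide, was at 1726 and 1629 CPM and 3439 and 4704 CPM, against 11.3 and 17.1 CPM and 566 and 971 CPM. Rsad2 kept a gap of 2.60 and 2.27 log2 after LPS, close to its neighbour Cmpk2 at 2.77 and 2.43. Mx1, an antiviral GTPase, was at 242 and 224 CPM untreated and 526 and 568 CPM with LPS, against 1.84 and 2.87 CPM and 189 and 244 CPM.

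Other effectors lay nearer to the other cells after LPS. Isg15, the ubiquitin-like modifier, was at 631 and 796 CPM untreated and 3633 and 4717 CPM with LPS, against 14.6 and 21.2 CPM and 1647 and 2376 CPM, so its ratio went from 5.34 and 5.17 to 1.14 and 0.99 log2. Oasl2, a relative of the oligoadenylate synthetases, was at 336 and 313 CPM untreated and 329 and 244 CPM with LPS, against 38.2 and 39.4 CPM and 314 and 232 CPM. By library totals Oasl2 in the cluster was thus no higher after LPS than before, while the other cells came up to it. Of the Oas, Mx and RNA-directed list, 12 of 15 and 11 of 14 compared were 2-fold or more higher untreated, and 3 of 16 in both libraries after LPS. In the Isg15 pathway these counts were 12 of 14 in both untreated libraries, and 1 and 0 of 14 after LPS. Of the nucleic acid sensors, 5 of 12 compared were 2-fold or more higher in both untreated clusters and 1 of 13 and 1 of 12 after LPS. Over all genes these shares were 3.34% and 3.33% untreated and 1.99% and 1.95% after LPS. Zbp1, a sensor of Z-form nucleic acid, was at 178 and 247 CPM untreated and 392 and 389 CPM with LPS, against 11.1 and 17.9 CPM and 331 and 363 CPM.

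Interferon-inducible GTPases, which attack pathogen vacuoles, also marked the cluster. All 11 compared were 2-fold or more higher in both untreated clusters (medians 3.51 and 3.31), beside 3.34% and 3.33% of all genes. After LPS 7 of 12 were in both clusters (1.18 and 1.03), beside 1.99% and 1.95%. Among the listed GTPases 6 reached the minimum in the other untreated cells under either label. The rest were compared untreated through the cluster's level alone. Gbp2 was at 373 and 559.5 CPM untreated and 818 and 895 CPM with LPS, against 19.5 and 37.2 CPM and 339 and 409 CPM. Iigp1 was at 218 and 165 CPM and 357 and 388 CPM, against 1.15 and 1.44 CPM and 122 and 149 CPM. Tnfsf10 (TRAIL), the death ligand, was by library totals near level inside the cluster, at 41.1 and 38.8 CPM untreated and 41.2 and 51.6 CPM with LPS, against 0.33 and 0.486 CPM and 9.04 and 12.5 CPM. Gbp and Ifit genes are families of close relatives, and reads of near-identical copies may have been split or dropped in the authors' counting.

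**Figure D3:**
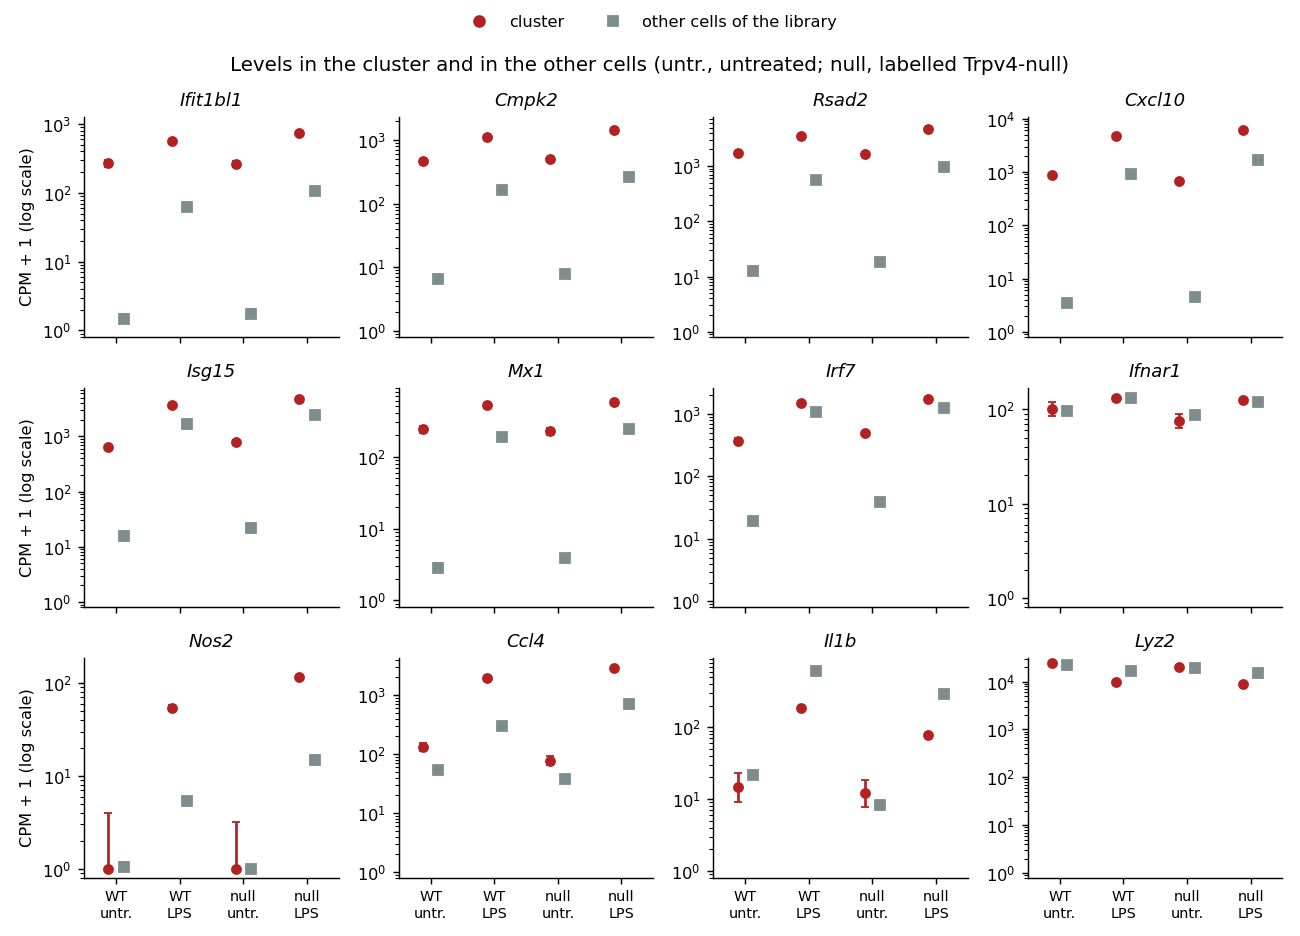
Level of 12 genes (CPM + 1, log scale) in the cluster (circles) and in the other cells of the same library (squares), with exact 95% Poisson intervals; untr., untreated; null, the library labelled Trpv4-null. Irf7 outside the cluster comes close to the cluster's level after LPS, Ifnar1 is level throughout, and Il1b lies below the other cells after LPS.

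Antigen presentation. Of the MHC class I list, 9 and 8 of 15 compared were 2-fold or more higher in the untreated clusters and 0 of 18 in both LPS clusters. Over all genes the shares were 3.34% and 3.33%, and after LPS 1.99% and 1.95%. Tap1, a peptide transporter, was at 204 and 210.4 CPM untreated and 347 and 349 CPM with LPS, against 38.5 and 41.6 CPM and 257 and 284 CPM. The class I heavy chain H2-K1 was at 1519 and 1492 CPM untreated against 1268 and 1254 CPM. Tap1 thus passed 2-fold untreated and H2-K1 did not. Against all other cells, MHC class II genes did not follow, with 0 of 6 compared 2-fold or more higher in either untreated cluster. H2-Aa was lower in WT, but log2 2.91 higher against the cluster named Macrophage alone. Another cluster is named for Cd74, and its cells are among the others. Cd74, the class II chaperone, was at 217 and 289 CPM against 235 and 243 CPM.

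Chemokines. Cxcl10, which attracts activated T cells, was at 872 and 684 CPM in the untreated cluster and 4731 and 6030.0 CPM after LPS, against 2.54 and 3.6 CPM and 911 and 1690.0 CPM. It had the largest untreated ratio of all named genes in WT, 7.95 log2, and its gap after LPS was 2.38 and 1.83. Ccl7, which attracts monocytes, was at 4.03 and 1.76 CPM untreated and 1893 and 2982 CPM with LPS, against 3.65 and 1.46 CPM and 534 and 1003 CPM. Ccl2 was at 30.6 and 19.4 CPM and 1837 and 3074 CPM, against 14.5 and 9.82 CPM and 598 and 1105 CPM. In the untreated clusters Ccl2, with 38 and 33 UMIs, was 2-fold higher in WT, and after LPS both Ccl2 and Ccl7 were higher in the cluster than outside it. Ccl2, Ccl7 and Ccl12 are close relatives and may share counts. Ccl5, which attracts T cells, was at 16810.0 and 17108 CPM after LPS against 11611 and 12261 CPM. In the untreated clusters a single cell gave 40.3% and 27.3% of the Ccl5 UMIs.

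NF-kB-driven genes lay on both sides. The 5 NF-kB subunit genes were all within 2-fold of the other cells in each library. Of 18 listed cytokine and feedback genes, 14 and 15 were compared after LPS, 4 were 2-fold or more higher and 3 lower in each library, beside 1.99% and 1.95% of all genes higher and 0.338% and 0.715% lower. Nos2 was at 0 and 0 CPM in the untreated clusters and 53.2 and 115 CPM after LPS, against 4.31 and 14.0 CPM in the LPS-treated others. Ccl4, which attracts monocytes and T cells, was at 1913 and 2836 CPM after LPS against 294 and 701 CPM, and Il1rn, the interleukin-1 receptor antagonist, at 490.3 and 702 CPM against 201 and 263 CPM. Interleukin-1 itself was lower. Il1b was at 13.7 and 11.2 CPM untreated and 183 and 76.9 CPM with LPS, against 20.4 and 7.29 CPM and 618 and 286 CPM. Il1a was at 28.1 and 17.7 CPM after LPS against 57.8 and 37.0 CPM, and the neutrophil attractant Cxcl3 at 11.8 and 11.3 CPM against 59.8 and 62.0 CPM. Another cluster is named for Il1b and Cxcl2, and its cells are among the others. Tnf was at 94.7 and 126 CPM against 68.1 and 95.1 CPM, and Saa3, an acute-phase protein, at 32240.0 and 27515 CPM against 46112 and 39483 CPM, both within 2-fold.

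Other genes marked the cluster most clearly after LPS. Lipg was at 0 and 1.18 CPM untreated and 70.2 and 85.4 CPM with LPS, against 2.90 and 5.05 CPM in the LPS-treated others, the largest LPS ratio after Ifnb1 in each library (4.19 and 3.84 log2). Serpina3g, a serine protease inhibitor, was at 11.3 and 5.88 CPM untreated and 21.3 and 32.4 CPM with LPS, against 0 and 0 CPM and 1.29 and 1.83 CPM. Pou3f1, a transcription factor with known links to the antiviral response, was at 8.86 and 5.88 CPM and 46.1 and 59.7 CPM, against 0.141 and 0.508 CPM and 3.94 and 8.97 CPM. Serpina3g and Pou3f1 were thus already above the other cells untreated, at levels under the 20 CPM needed for comparison.

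**Figure D4:**
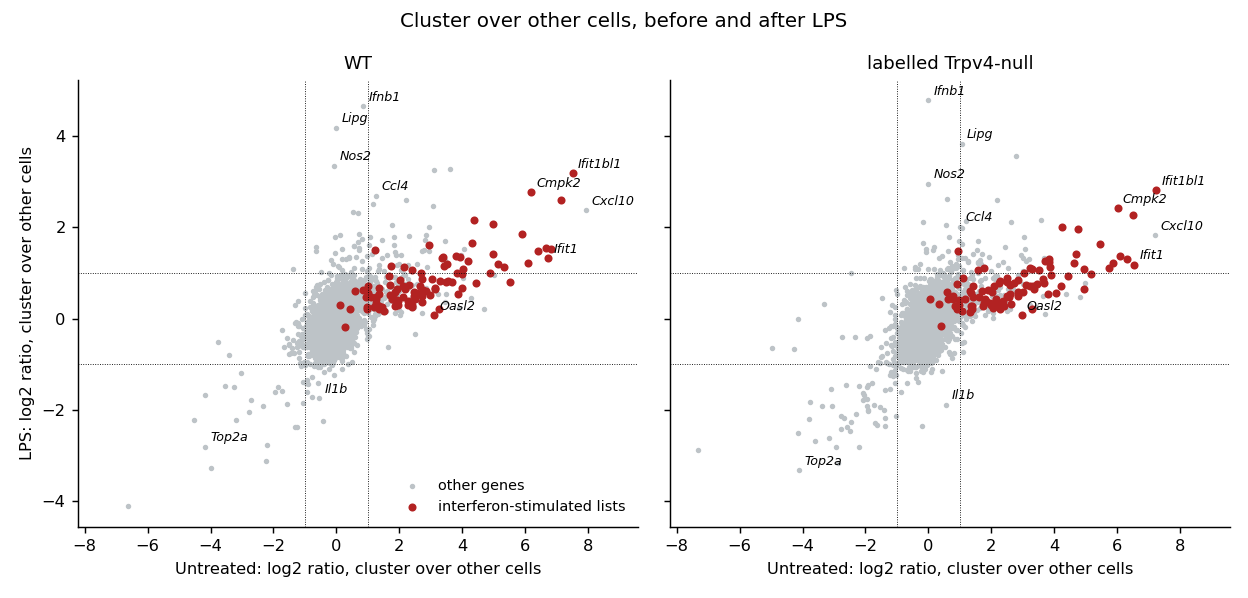
Log2 ratio (CPM + 1) of cluster over other cells in the untreated library (x axis) and after LPS (y axis), a point per gene, in WT (left) and in the libraries labelled Trpv4-null (right); dotted lines mark 2-fold, and genes of the ISG lists are in red. ISGs lie far along the x axis and within a narrower range on the y axis, while Ifnb1, Lipg and Nos2 lie high on the y axis and low on the x axis.

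ISGs differed less between untreated and LPS cells inside the cluster than outside it, which the choice of cells builds in: the cluster is drawn on high ISG levels, and its untreated and LPS cells are separate selections, not 1 population before and after. The values are a description. Between untreated and LPS cells of the cluster, 356 of 5630 genes (6.32%) were 2-fold or more higher and 986 (17.5%) lower in WT, and 376 of 5971 (6.3%) and 1423 (23.8%) in the null-labelled libraries. For the other cells these were 434 (6.84%) and 1107 (17.4%) of 6345, and 462 (7.28%) and 1315 (20.7%) of 6348. Of the ISGs, 33 of 98 and 33 of 99 compared were 2-fold or more higher after LPS in the cluster (medians 0.58 and 0.59), against 79 and 80 of 93 in the other cells (2.40 and 2.40). The difference of these ratios, cluster minus other cells, had a median of -1.95 and -1.99 over 93 ISGs, with 73 at -1 or less in each, beside -0.03 and -0.08 over all genes. The direction of most calls rests on the scaling. Higher genes made up 26.5% and 20.9% of the cluster's LPS calls, and 67.0% and 66.6% under TMM, as the median over all genes moved from -0.33 and -0.43 to 0.20 and 0.23 log2. The ISG medians under TMM were 1.08 and 1.18 in the cluster and 2.89 and 2.96 in the other cells, so the order of cluster and other cells was the same. NF-kB-driven genes did not show that gap, with 11 and 12 of 13 compared 2-fold or more higher after LPS in the cluster (3.65 and 3.76) and the same counts in the other cells (2.93 and 4.36).

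Compared with LPS-treated other cells, the untreated cluster had ISG levels of the same order and far lower NF-kB-driven genes. This comparison was added after the data had been seen. Rsad2 was at 1726 and 1629 CPM in the untreated cluster against 566 and 971 CPM in the LPS-treated others, and Ifit1bl1 at 266 and 262 CPM against 61.4 and 105 CPM. Isg15 went the other way, at 631 and 796 CPM against 1647 and 2376 CPM. Over all genes 781 of 5730 (13.6%) were 2-fold or more higher in the untreated cluster and 284 (4.96%) lower in WT, and 989 of 6045 (16.4%) and 318 (5.26%) in the null-labelled libraries. Under TMM these counts became 381 and 604 in WT and 422 and 748 in the null-labelled libraries. The ISG median was 0.19 and 0.23 log2 with library totals and -0.18 and -0.20 with TMM, so its sign turns with the scaling. With library totals 9 of 96 and 8 of 97 ISGs compared were 2-fold or more higher in the untreated cluster and 13 and 13 lower, and with TMM 4 and 1 were higher and 20 and 21 lower.

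The NF-kB-driven and chemokine genes stood far lower there. Of 13 NF-kB-driven genes compared, 11 and 12 were 2-fold or more lower in the untreated cluster (medians -2.59 and -3.92), beside 4.96% and 5.26% of all genes. The other untreated cells were low in these genes too, with medians of LPS over untreated of 2.93 and 4.36. Against those untreated cells, 2 of 7 and 2 of 6 compared were 2-fold or more higher in the cluster and 0 lower. Over all genes 3.34% and 3.33% were higher and 0.918% and 1.43% lower there. The list's medians were 0.45 and -0.02, the highest member being Acod1 at log2 3.47 and 4.39. Il1b was at 13.7 and 11.2 CPM in the untreated cluster against 618 and 286 CPM in the LPS-treated others, Acod1, which makes itaconate, at 26.6 and 41.1 CPM against 1179 and 1572 CPM, and Saa3 at 4.83 and 18.8 CPM against 46112 and 39483 CPM. In WT a single cell held 30.3% of the untreated cluster's Acod1 UMIs. Of the interferon-induced chemokines 5 of 7 and 6 of 6 were lower (medians -3.83 and -5.63), with Ccl5 at 154 and 129 CPM against 11611 and 12261 CPM. The MHC class I medians were -0.71 and -0.72, with 5 of 18 2-fold or more lower in each, and under TMM -1.08 and -1.15, with 10 of 18 in each.

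**Figure D5:**
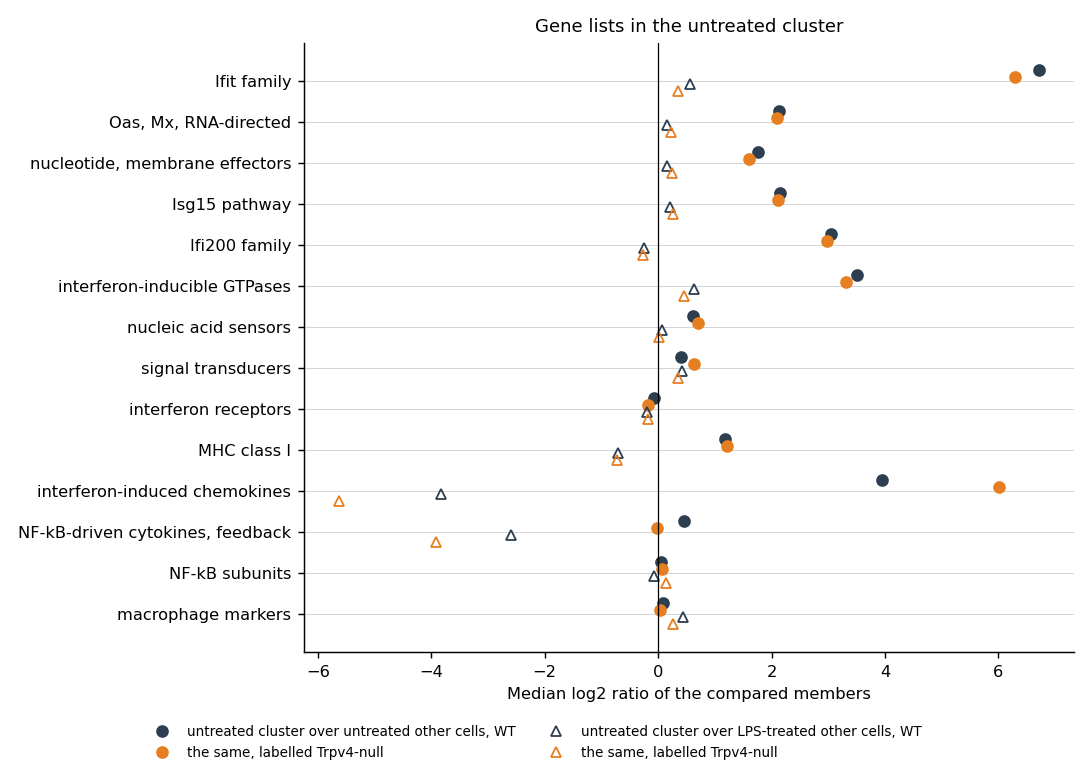
Median log2 ratio of each gene list in the untreated cluster, over untreated other cells (filled circles) and over LPS-treated other cells (open triangles), library totals as scaling, WT in dark and the libraries labelled Trpv4-null in orange. The Ifit family lies at 6.72 and 6.30 over untreated cells and at 0.55 and 0.34 over LPS-treated cells (0.18 and -0.09 under TMM). NF-kB-driven genes lie at 0.45 and -0.02 over untreated cells and at -2.59 and -3.92 over LPS-treated cells.

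Cells of the cluster varied widely. The 107 ISGs gave a median of 2.52% and 2.90% of a cluster cell's UMIs untreated (5th to 95th percentile 1.3 to 6.16% and 1.45 to 5.89%) and 5.14% and 5.75% after LPS (3.74 to 9.50% and 4.14 to 9.03%). In the other cells the medians were 0.656% and 0.750% untreated and 3.25% and 3.66% after LPS. Untreated, 176 of 177 and 174 of 179 cluster cells lay above the 95th percentile of the other cells, and 632 of 865 and 515 of 720 did after LPS. Other cells above the cluster's median numbered 3 of 6851 and 2 of 5306 untreated, and 74 of 7423 (0.997%) and 84 of 5845 (1.44%) after LPS. The cluster was defined from these same counts, so a gap in ISG share is built in. By these measures the overlap with other cells was smaller before LPS than after it. The other cluster with the highest median was Tmem176+ untreated (0.841% and 0.951%) and Cd74+ after LPS (3.75% and 4.12%). Over 14432 genes the profiles most like the cluster's were High_Lpl_Fabp4+ and Il1b+_Cxcl2+ (mean Pearson r of log2 CPM + 1 over 4 libraries 0.981 for both), with Macrophage close at 0.980, and the least like was Proliferating (0.952). The order rests on the LPS libraries: untreated, High_Lpl_Fabp4+ (0.969 and 0.972) lay below Il1b+_Cxcl2+ (0.972 and 0.976) and Macrophage (0.971 and 0.974). These correlations are across genes of the same libraries and describe likeness only.

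Between the labels, the cluster differed in few genes. After LPS 7 of 4964 compared genes (0.141%) were 2-fold or more higher in the null-labelled cluster and 4 (0.0806%) lower, beside 6 and 4 of 5260 in the other cells. The 7 were Mmp12, Serpinb2, Ptgs2, H2-Aa, Mmp13, Nos2 and Rgs1, and the 4 were Marco, Cd33, Il1b and Ide. Mmp13, a collagenase, was at 66.4 and 153 CPM in the cluster and 10.1 and 34.4 CPM in the other cells. Marco, a scavenger receptor, was at 179.8 and 63.6 CPM and 214 and 99.6 CPM. Both differences were therefore present outside the cluster as well. A single cell gave 22% of the Mmp12 and 17.5% of the H2-Aa UMIs of the null-labelled LPS cluster. Untreated, 33 of 5822 (0.567%) were higher and 38 (0.653%) lower, beside 10 and 9 of 6148 in the other cells, with the cluster's sums there far smaller. Ly6a, an interferon-inducible surface protein, was at 37.0 and 165 CPM in the cluster and 3.98 and 16.8 CPM in the other cells. Of 9 immediate-early genes compared, 5 were 2-fold or more lower in the null-labelled untreated cluster and 3 in the other cells, with Fos at 559 and 189 CPM and Dusp1, a phosphatase, at 301 and 85.8 CPM. Of the ISGs, 3 of 95 (Ly6a, Ifitm1 and Ifi208) were 2-fold or more higher and 0 lower untreated (median 0.09), and 0 of 99 either way after LPS (median 0.08), beside -0.07 over all genes after LPS. Interferon-induced chemokines, listed apart from the ISGs, went the other way untreated. All 4 compared in the cluster were on the lower side (median -0.49), and 1, Cxcl9, passed 2-fold (log2 -4.08). Of 6 NF-kB-driven genes compared untreated, 3 were 2-fold or more lower in the cluster and 1 in the other cells. Ifnb1 after LPS was at 37.8 and 51.4 CPM, less than 2-fold apart. With 1 library per label, a difference of label and one of culture or mouse cannot be told apart.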

How the data were processed

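Single-cell RNA was captured as polyadenylated transcripts in 10x Chromium droplets, in 4 libraries of BMDMs, 1 per group. The deposited table holds raw UMI counts for 14432 genes in 27366 cells, and the deposited cell table gives the library, the cluster name and the mitochondrial share of UMIs as a fraction, per the file headers. Cell Ranger 3.1.0, Seurat 4, R 4.2 and the build mm10 are named in the submitters' processing notes, without role or order. The authors' filters on cells and genes, their treatment of doublets and the strand setting are not stated there or in the labels, so antisense and overlapping genes cannot be told apart. All deposited cells were kept and no doublet caller was run.

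Counts were summed over the cells of the cluster and over all other cells of each library, and scaled to CPM by the total. Ratios are log2 of CPM + 1. A gene was compared with 20 CPM and 30 UMIs or more on the higher side. With 1 library per group no test, p-value or standard error was computed. Levels have exact Poisson, ratios exact conditional and shares exact Clopper-Pearson intervals of 95%, which cover counting error only. For a count of 0 the limit is 3 counts. Shares of cells with a UMI were repeated with cells thinned to 3000 UMIs. Calculations used Python 3.11.15, numpy 2.4.6, scipy 1.17.1 and pandas 2.3.3, with TMM factors from edgeR 4.0.16 in R 4.3.3, and were checked on simulated data. Promoter sequence came from RefSeq tables for GRCm38.p6, matched by symbol.

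Genes named in the text are Ifit1bl1, Cmpk2 and Trpv4, the 15 highest and 10 lowest ratios within each library, the 12 highest and 12 lowest between libraries in the cluster, the 8 highest and 8 lowest differences between cluster and other cells in the latter, and up to 6 members of each list with the highest mean CPM. Named after their values were seen were AW112010, Fgl2, Gbp5, Igtp, Cd274, Il15, Tlr3, Il10, Il1a, Tnf, Tap1, Fcgr1, Csf1r, Cd68, C1qa, Ly6c2, Flt3, Ccr7, Elane, Ifi208 and Cd3d. The cluster and the gene lists were chosen with earlier results of these data known. Alternatives were other scalings, pseudocounts and minimum levels, equal weight per cell, leaving out the deepest or the shallowest cells, and the cluster named Macrophage as the only reference.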

Additional observations from a re-analysis of the deposited data

How the results depend on the processing

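Most values held. Of 587 ratios of named genes at 2-fold or more, 4544 of 4715 recomputed values were still 2-fold or more the same way. Another 166 were under 2-fold in the same direction and 5 changed sign. A value was recomputed only where the gene still passed the minimum under the changed setting, so genes lost that way are not counted. Those 5 were all against the cluster named Macrophage alone: H2-Aa in untreated WT (2.91 log2), Birc5 and Mki67 in the untreated null-labelled library (0.33 and 0.39), and Serpinb2 and Stmn1 in the null-labelled LPS library (1.10 and 0.35).

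Scaling moved most of the rest. With TMM factors, cluster genes lower than other cells untreated numbered 24 in WT and 53 in the null-labelled library, and the LPS medians of ISGs were 0.80 and 0.78. LPS against untreated in the cluster gave 805 higher, 397 lower and an ISG median of 1.08 in WT, and 983, 492 and 1.18 in the null-labelled libraries. The ISG median between labels after LPS was 0.18. The untreated cluster against LPS-treated other cells gave 381 higher, 604 lower and an ISG median of -0.18 in WT, and 422, 748 and -0.20 in the null-labelled libraries. With median-of-ratios factors the same values were 24 and 53 lower, ISG medians of 0.83 and 0.84, then 790, 399 and 1.08, and 1014, 485 and 1.19, then 0.22, then 414, 551 and -0.14, and 460, 676 and -0.15. The null-labelled LPS cluster had 178 higher and 18 lower genes there.

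With a 50 CPM minimum, lower genes within libraries numbered 11 and 31 untreated and 6 and 9 after LPS. LPS against untreated then gave 599 and 734 lower, and the label 7 higher and 19 lower untreated, and 3 and 2 after LPS. With no CPM minimum, lower genes within libraries were 655 and 540 untreated and 169 and 276 after LPS, with 165 and 154 higher after LPS. LPS against untreated gave 620 and 590 higher, and the label 22 higher and 15 lower after LPS. With a pseudocount of 5 CPM, 34 genes were lower in untreated WT and 21 in the null-labelled LPS library, and the label gave 19 higher and 21 lower untreated. Against the cluster named Macrophage alone, 36 genes were lower in the untreated null-labelled cluster. With each cell weighted equally, 50 genes were higher in the null-labelled untreated cluster than in WT. The cluster's share of Ifnb1 was 75.5% and 69.8% by cells with a UMI, and 85.1% and 82.9% without its 10 highest cells. Fewer or more genes pass a changed minimum by construction, and the cause of the other changes was not tested.

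No paired analysis was possible because each group is 1 library, which also leaves no replicate to leave out. The untreated clusters, with 177 and 179 cells, limit the comparisons there, since a gene needs 30 UMIs on its higher side.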

Other observations

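Values of a few further genes were as follows. Acod1, which makes the antimicrobial metabolite itaconate, was at 26.6 and 41.1 CPM in the untreated cluster against 1.48 and 1.01 CPM in the other untreated cells. Slfn5, an interferon-inducible member of the Schlafen family, was at 882 and 829 CPM untreated and 832 and 850.1 CPM with LPS, against 112 and 113 CPM and 576 and 599 CPM. Ccr2, the receptor for Ccl2, was after LPS at 12.2 and 11.1 CPM against 6.13 and 4.86 CPM, under the minimum for comparison. Ribosomal protein genes did not reach 2-fold in the cluster: they were near level untreated (medians 0.01 and 0.04 log2) and lower in the cluster after LPS (-0.44 and -0.43), with 0 of 15 past 2-fold in each library.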
